A study of Rattus norvegicus with 82 samples.

Results

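The 9 genes described here encode the thin filament of the cardiac sarcomere: the actins Acta1, Actc1 and Acta2, the troponins Tnnt2, Tnni3, Tnni1 and Tnnc1, and the tropomyosins Tpm1 and Tpm2. They were chosen by gene symbol as the adult and fetal isoforms of these proteins, and all 9 were found among the 17337 genes of the count table. All 9 also passed the filter on low counts that left 11954 genes for testing.

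Actin monomers form the core of the thin filament, tropomyosin lies along it, and the troponin complex switches it on when calcium binds. Troponin T anchors the complex to tropomyosin, troponin I inhibits the contact between actin and myosin, and troponin C is the calcium sensor. In rodents the ventricle before and around birth uses more skeletal alpha-actin (Acta1), slow skeletal troponin I (Tnni1) and beta-tropomyosin (Tpm2), and the adult ventricle relies on cardiac alpha-actin (Actc1), cardiac troponin I (Tnni3) and alpha-tropomyosin (Tpm1). Smooth muscle alpha-actin (Acta2) belongs to the early heart tube and, in the adult heart, to vessel walls and activated fibroblasts. A renewed rise of Acta1 is a classical sign of cardiac pressure load.

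The cells came from 41 rats, each of which gave 1 library of right ventricular (RV) and 1 of left ventricular (LV) cardiomyocytes. The animals were the offspring of female Wistar Kyoto and male Lewis animals, and the 82 libraries fall into 12 groups. A clip around the pulmonary artery (PAB) loads the RV, a clip around the aorta (AOB) loads the LV, and sham-operated animals carried no band. The letter H stands for the compensated stage (labelled 11 weeks of age and 7 weeks of treatment) and F for the decompensated stage, labelled 31 weeks of age and 26 weeks of treatment in Sham-F and AOB-F and 28 and 22 weeks in PAB-F. There were 7 Sham-H (3 male), 6 PAB-H (4 male), 6 AOB-H (2 male), 9 Sham-F (4 male), 6 PAB-F (4 male) and 7 AOB-F (4 male) animals. The text of the study gives other ages at harvest than the labels, and those of the labels are used here. The labelled age of PAB-F is thus below that of Sham-F, and this difference cannot be told apart from the banding. Cells were pelleted at low speed after collagenase perfusion, without sorting, so other heart cells could be carried over. The study checked markers of other cell types by immunofluorescence and RT-qPCR and reports that these cells were quantitatively removed. It adds that a contribution of small amounts of fibroblasts could not be formally excluded.

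The libraries held between 6675287 and 19665439 counts on genes, with a median of 13070000. The 9 genes together took between 1.57% and 3.19% of the counts. All 8 ventricular cardiomyocyte markers in the table had counts in every library, and Myh6, the adult alpha-myosin heavy chain, took a median of 4.2% of the counts. The endothelial gene Pecam1 (630 to 5488 counts) and the smooth muscle gene Myh11 (345 to 2330 counts) were also detected in every library. Some libraries stood apart. LV AOB-F replicates 6 and 7 had the smallest Myh6 shares of all libraries. LV AOB-H replicate 6 had the fewest counts and the largest endothelial share (0.582%), and RV PAB-F replicate 1 and RV PAB-H replicate 2 had the largest myofibroblast shares (0.0187% and 0.0165%).

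Levels are given as CPM, counts scaled to the effective library size, where 1 gene is compared between libraries, and as the authors' FPKM, which also corrects for length, where genes are compared with each other. Per length, Actc1 was the most abundant of the 9, with a median of 8562 FPKM over the 82 libraries. Tnnt2, Tnni3, Tnnc1 and Tpm1 followed at 3721, 3372, 2787 and 1690 FPKM, and Acta1 at 490 FPKM. The remaining 3 were rare in these cells, with medians of 26.5 FPKM for Acta2, 4.86 FPKM for Tpm2 and 1.04 FPKM for Tnni1. The span between the lowest and highest library was widest for Tnni1 (46.2-fold in CPM, on 1 to 47 counts), Acta1 (19.8-fold) and Acta2 (13.9-fold), and narrowest for Tpm1 (3.02-fold) and Tnni3 (3.82-fold). Counts were made per gene, so splice forms of Tnnt2 and Tpm1 were added together. The actins have near-identical coding sequences, so the split of reads between Acta1, Actc1 and Acta2 depends on how reads that align to more than 1 of them were counted.

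The actins differ in the sequence before their transcription starts. The 250 bases upstream of the start are shown for the 3 actin genes because their levels went different ways in the comparisons below. They are taken from RefSeq on the GRCr8 build, not the build of the counts, and run 5′ to 3′ on the gene's strand, which is the minus strand for all 3. Acta1 lies at chr19:68784195-68784444, Actc1 at chr3:121271828-121272077 and Acta2 at chr1:241172504-241172753. Capitals mark an exact CArG box (CC, then only A or T, then GG), a form of the motif that serum response factor (SRF) binds.
Acta1: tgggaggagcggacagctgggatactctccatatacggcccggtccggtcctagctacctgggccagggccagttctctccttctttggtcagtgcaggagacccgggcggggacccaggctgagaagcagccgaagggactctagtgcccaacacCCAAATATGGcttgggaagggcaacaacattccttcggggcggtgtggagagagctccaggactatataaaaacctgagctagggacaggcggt
Actc1: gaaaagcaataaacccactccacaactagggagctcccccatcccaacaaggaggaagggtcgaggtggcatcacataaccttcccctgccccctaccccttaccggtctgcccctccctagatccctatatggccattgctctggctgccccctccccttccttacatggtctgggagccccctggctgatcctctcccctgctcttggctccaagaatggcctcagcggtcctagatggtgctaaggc
Acta2: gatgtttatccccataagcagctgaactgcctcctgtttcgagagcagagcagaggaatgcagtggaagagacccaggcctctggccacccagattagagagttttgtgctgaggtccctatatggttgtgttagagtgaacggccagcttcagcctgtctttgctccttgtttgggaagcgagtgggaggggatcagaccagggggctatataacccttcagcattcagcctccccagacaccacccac
Searched on both strands, the window of Acta1 held 1 CArG box, whose first base lies 94 bases before the start, and 1 TATAAA 29 bases before it, with no overlap between them. Of 33469 RefSeq windows of this length, 1.5% held a CArG box and 12.9% held a TATAAA. Promoters were found for 8 of the 9 genes, Tnnc1 having no entry. Among these 8 genes only Acta1 had a CArG box spelled this way within 250 bases. The search allowed no mismatch. Near matches were not counted, such as ccctatatgg in the windows of Actc1 and Acta2, which differs at 1 base. Binding of SRF was not tested. The windows of Acta1, Acta2, Tpm1 and 1 of the 2 Tnnt2 starts each held 1 CATTCC, the core of the motif of TEAD factors, which 12.1% of all windows held.

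First, the loaded RV was compared with the RV of sham-operated animals. Acta1 was the member that changed most. In RV Sham-H it ranged from 196 to 673 CPM with a median of 296 CPM, and in RV PAB-H from 464 to 2224 CPM with a median of 1707 CPM. Of the 6 RV PAB-H libraries 5 lay above all RV Sham-H libraries, and replicate 1 lay within their range. This amounted to a log2 fold change of 2.01 (SE 0.39, 4.03-fold, adjusted p = 0.00184). Adjusted p values of single genes are from edgeR's quasi-likelihood test with Benjamini-Hochberg adjustment over the 11954 genes, and a gene under 0.05 is called.

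In RV Sham-F the Acta1 level ranged from 171 to 685 CPM with a median of 314 CPM. In RV PAB-F it ranged from 459 to 3379 CPM with a median of 2284 CPM, and 4 of the 6 libraries exceeded every sham library. Replicates 3 and 6 (459 and 584 CPM) remained within the sham range. Replicate 6 came from a female, and it lay above the 5 RV Sham-F females (171 to 320 CPM). The increase was 2.52 on the log2 scale (SE 0.36, 5.72-fold, adjusted p = 5.63e-07). The calls held in each of the 13 and 15 fits that left out 1 library, with log2 fold changes between 1.90 and 2.20 for PAB-H and between 2.29 and 2.72 for PAB-F. Without RV PAB-F replicate 1 and RV PAB-H replicate 2, both calls also held.

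Acta1 was the only called member in RV PAB-H, where 4.5% of all tested genes were called (3.91% higher and 0.594% lower). In RV PAB-F 3 members were called, Acta1 and Tpm2 higher and Tnni1 lower, against 11.1% of all tested genes (7.66% higher and 3.42% lower). The study's own thresholds asked for a log2 fold change beyond 1 and an unadjusted p no higher than 0.01. They also asked for a mean count over 50 in the disease condition. Here this minimum was applied to the larger group mean in normalized counts, so a gene high only in sham could pass. By the thresholds as applied here, Acta1 and Acta2 passed in RV PAB-H (1.83% of all tested genes) and Acta1 alone in RV PAB-F (1.97%).

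Markers of other heart cells were called in the same comparisons. In RV PAB-H all 8 tested fibroblast genes were called higher, with a median log2 fold change of 1.29, as were all 3 tested myofibroblast genes (median 1.99), 2 of 7 endothelial genes and 1 of 8 mural cell genes (smooth muscle cells and pericytes). No macrophage gene and none of the 8 ventricular cardiomyocyte genes was called there. The summed fibroblast share was 0.0715% to 0.557% in RV PAB-H and 0.0433% to 0.0979% in RV Sham-H. In RV PAB-F 3 of 3 myofibroblast genes, 3 of 8 fibroblast genes (median 0.82) and 2 genes each of the mural, endothelial and macrophage lists were called higher, and so was 1 of 8 ventricular cardiomyocyte genes. In each of these comparisons 1 of 3 atrial cardiomyocyte genes was called higher. The fibroblast share was 0.0756% to 0.273% there and 0.0401% to 0.128% in RV Sham-F. The part of these cells in the results of the members was not tested.

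**Figure D1:**
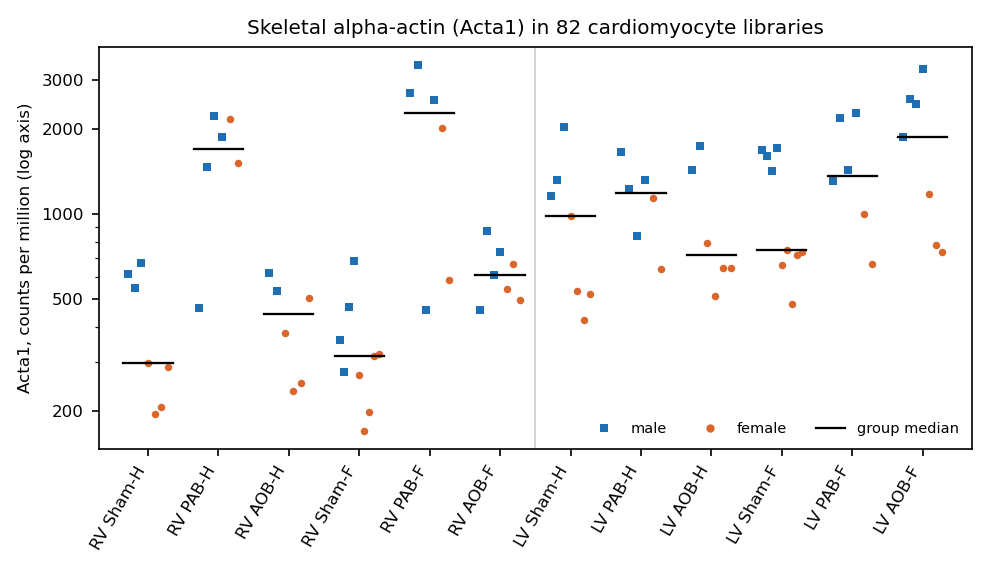
Acta1 level in CPM (scaled counts) on a log axis in each of the 82 libraries, by group, with males as squares, females as circles and the group median as a line. The medians of RV PAB-H (1707) and RV PAB-F (2284) stand above those of the RV sham groups (296 and 314), and in 7 of the 12 groups every male lies above every female.

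In the loaded LV, Acta1 did not pass the threshold at either stage. LV Sham-H ranged from 421 to 2046 CPM (median 987 CPM) and LV AOB-H from 513 to 1752 CPM (median 718 CPM), so that all 6 banded libraries lay within the sham range. The log2 difference was -0.05 (SE 0.38, adjusted p = 0.955). At the F stage LV Sham-F ranged from 480 to 1725 CPM (median 749 CPM) and LV AOB-F from 735 to 3270 CPM (median 1878 CPM), with 4 of 7 banded libraries above all sham libraries. These 4 were the male AOB-F animals, whereas the 3 females lay between 735 and 1185 CPM. The log2 fold change was 0.76 (SE 0.35, adjusted p = 0.13), and 1.07 (adjusted p = 0.077) without LV AOB-F replicates 6 and 7.

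In the ventricle that was not under the band, Acta1 was not called in any of the 4 comparisons. Its largest difference there was in RV AOB-F, where the median was 609 CPM against 314 CPM in RV Sham-F and the log2 fold change 0.88 (SE 0.35, unadjusted p = 0.0131, adjusted p = 0.862). It was 0.06 in RV AOB-H, 0.19 in LV PAB-H and 0.45 in LV PAB-F. The 8 banding comparisons share their sham libraries by stage and ventricle.

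Did the RV and the LV of the same PAB animals differ in their response? At the F stage the response of Acta1 in the RV exceeded that in the LV by 2.07 on the log2 scale (SE 0.52, adjusted p = 0.0482), and 0.351% of all genes were called for such a difference. In edgeR the call was lost without a filter on low counts (adjusted p = 0.0804) and with DESeq2's size factors (0.0722). It was also lost without RV PAB-F replicate 1 and RV PAB-H replicate 2 (1.95, adjusted p = 0.201). The call held with sex as a covariate (0.00226), with the animal as a block (1.84, adjusted p = 0.00567) and in DESeq2's own test (2.04, adjusted p = 0.0231). At the H stage the difference was 1.82 (SE 0.55, adjusted p = 0.398), where 0% of all genes were called. None of the other 8 members was called in either comparison. The difference between the F and H stages in the response of the RV to PAB was 0.51 for Acta1 (SE 0.53, interval from -0.53 to 1.54 at 95%), and that of the LV to AOB 0.81 (SE 0.52, interval from -0.21 to 1.82). In these comparisons of stages, and in those of LV with RV upon AOB, edgeR called 0% of all genes and no member, and DESeq2 called no member either. At an unadjusted p under 0.05 there was 1 member in the stage comparison of PAB (Acta2), none in that of AOB, 1 in the comparison of ventricles at AOB-H (Tnni1) and none in that at AOB-F, against 1.48%, 9.6%, 4.83% and 9.71% of all tested genes. In the comparison of ventricles at PAB-H there were 2 (Acta1 and Acta2) against 9.24%.

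Acta1 also differed between the sexes, a comparison added after the values were seen. With the group in the fit, males were 0.90 higher on the log2 scale (SE 0.12, 1.87-fold, adjusted p = 2.39e-08). The male median was the higher in 11 of 12 groups, and in 7 groups every male lay above every female. In LV Sham-F the 4 males ranged from 1423 to 1725 CPM and the 5 females from 480 to 749 CPM. In RV Sham-H the 3 males ranged from 550 to 673 CPM and the 4 females from 196 to 296 CPM. Both ventricles of an animal entered this fit, which makes its p values too small. With 1 library per animal the difference was 1.18 in the LV (adjusted p = 3.4e-09) and 0.62 in the RV (adjusted p = 0.0334). Whether it differed between the ventricles was tested with an interaction term (RV minus LV -0.56, SE 0.23, adjusted p = 0.21), which called 0.1% of all genes and no member. At an unadjusted p under 0.05 the interaction held 4 members (Acta1, Actc1, Tnnc1 and Tpm2) and 1840 of all tested genes. Of the other members Tnnt2 was called between the sexes and was lower in males (log2 difference -0.25, SE 0.07, adjusted p = 0.012), a call that was lost in the RV alone (adjusted p = 0.246) and in the LV alone (0.0552). Among all tested genes 17.2% were called, 9% higher and 8.16% lower in males. With sex as a covariate, the Acta1 calls in RV PAB-H and RV PAB-F held.

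Actc1, which makes most of the sarcomeric actin of the adult heart, was not called in any comparison. Its group medians lay between 11520 CPM in RV AOB-H and 13780 CPM in LV PAB-H. Its log2 fold change upon banding was between -0.25 and 0.03, and in RV PAB-F the 95% interval ran from -0.28 to 0.34. Its lowest values over all libraries were those of LV AOB-F replicates 6 and 7 (4810 and 5406 CPM), where the other 5 ranged from 12170 to 18630 CPM. These were also the libraries with the smallest Myh6 shares, and without them the log2 fold change in LV AOB-F was 0.07 (adjusted p = 0.80).

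Acta2 had 2 high libraries in RV PAB-H, replicates 1 and 2, with 93.5 and 96.9 CPM against 18.8 to 26.3 CPM in the other 4 and 14.9 to 29.8 CPM in RV Sham-H. On the log2 scale the difference was 1.03 (SE 0.34, adjusted p = 0.0609). It passed with library totals in place of TMM factors (1.17, adjusted p = 0.0411) and when any of replicates 3 to 6 was left out, and fell to 0.68 (adjusted p = 0.481) without RV PAB-H replicate 2 and RV PAB-F replicate 1. RV PAB-H replicates 1 and 2 also had the largest shares of mural cell genes of their group (0.0806% and 0.132%, against 0.0423% to 0.0563%). The same held for fibroblast genes (0.294% and 0.557%, against 0.0715% to 0.109%), and the part of these cells in the result was not tested. In such bulk samples, more cells of a type and more RNA per cell cannot be told apart. In RV PAB-F the Acta2 range was 26.8 to 56.1 CPM and that of RV Sham-F 18.1 to 53.4 CPM, with a log2 fold change of 0.03 (SE 0.32). In the loaded LV it was -0.09 in AOB-H and 0.31 in AOB-F.

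Among the troponins, the 2 troponin I genes both had negative log2 fold changes in the RV upon PAB, those of Tnni3 without a call in edgeR. Tnni1, the fetal isoform, was called lower in RV PAB-F, where the 6 libraries held 0.483 to 0.824 CPM (7 to 13 counts) against 1.38 to 2.21 CPM (17 to 24 counts) in the 9 RV Sham-F libraries. The groups did not overlap, as was the case for 2.71% of all tested genes. The log2 fold change was -1.26 (SE 0.36, adjusted p = 0.0135) and stayed called whichever library was left out. Tnni3, the adult isoform, had a log2 fold change of -0.41 (SE 0.16, adjusted p = 0.0744) in RV PAB-F and -0.48 (SE 0.16, adjusted p = 0.07) in RV PAB-H, and 4 of 6 and 5 of 6 libraries lay below all sham libraries. In the RV Sham-H libraries Tnni3 ranged from 2627 to 3472 CPM, and in RV PAB-H from 1310 to 2910 CPM. Tnni3 was called in both with DESeq2 (adjusted p = 0.0482 for PAB-H and 0.0461 for PAB-F), with a log2 fold change of -0.49 and -0.43. In LV AOB-F it was -0.39 (SE 0.15, adjusted p = 0.0666), which passed with sex as a covariate (-0.42, adjusted p = 0.0437) and was -0.21 (adjusted p = 0.47) without LV AOB-F replicates 6 and 7.

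Tnni1 also had low values in LV AOB-H, between 0.0900 and 0.714 CPM on 1 to 9 counts, with a log2 fold change of -1.35 (SE 0.41, adjusted p = 0.101). In this comparison 0.0167% of all tested genes were called and no member was, although Tnni1 had an unadjusted p of 0.00158. DESeq2 called no member there either. Without replicate 6, the library with the fewest counts, Tnni1 had a log2 fold change of -1.28 (adjusted p = 0.327) and no member was called. Tnnt2, which ties the troponin complex to tropomyosin, and Tnnc1, the calcium sensor of heart and slow muscle, were not called in any of the 8 banding comparisons. Their log2 fold changes lay between -0.25 and 0.23 for Tnnt2 and between -0.26 and 0.20 for Tnnc1.

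Of the tropomyosins, Tpm2 was called higher in both decompensated ventricles under the band. LV AOB-F libraries ranged from 9.70 to 22.7 CPM and LV Sham-F libraries from 5.12 to 9.26 CPM, and the groups did not overlap, which held for 0.0837% of all tested genes. The log2 fold change was 0.73 (SE 0.23, 1.66-fold, adjusted p = 0.0239). Tpm2 was the only called member, against 12.9% of all tested genes (8.54% higher and 4.35% lower). The highest values were those of replicates 6 and 7 (14.1 and 22.7 CPM). Without both, the difference was 0.49 (adjusted p = 0.24), and without replicate 7 alone the adjusted p was 0.127. A fit to these 2 groups alone gave an adjusted p of 0.087. In the same comparison 2 of 3 myofibroblast genes (median log2 fold change 2.20), 3 of 7 macrophage genes (median 0.89), 1 of 8 mural genes and 1 of 7 endothelial genes were called higher, and no fibroblast or ventricular cardiomyocyte gene was. Their part in the result was not tested.

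In RV PAB-F, Tpm2 ranged from 6.82 to 21.8 CPM against 3.85 to 10.8 CPM in RV Sham-F, with 1 of 6 libraries, replicate 1, above all sham libraries. The log2 fold change was 0.70 (SE 0.24, adjusted p = 0.0474). The call was lost when any of 9 of the 15 libraries was left out, and the difference was 0.34 (adjusted p = 0.483) without replicate 1. It was also lost without a filter (adjusted p = 0.0815), with DESeq2's size factors in edgeR (0.0546), with sex as a covariate (0.0528) and in a fit to the 2 groups (0.0559). In DESeq2's own test the call held (0.68, adjusted p = 0.0468). Replicate 1 also had the largest myofibroblast share of all libraries, and its part in the result was not tested. Tpm1, the main adult tropomyosin, was not called upon banding. Its lowest log2 fold change was -0.31 in RV PAB-F (SE 0.13, adjusted p = 0.0977), where 4 of 6 libraries lay below all sham libraries, and it was -0.26 in RV PAB-H (SE 0.14, adjusted p = 0.271).

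In the ventricles away from the band no member was called by edgeR or DESeq2. The share of all genes called was 0% in LV PAB-H, LV PAB-F and RV AOB-H and 0.0669% in RV AOB-F. At an unadjusted p under 0.05 there was 1 member in LV PAB-H (Tnni1), 1 in RV AOB-H (Tpm2, 0.67, SE 0.26) and 1 in RV AOB-F (Acta1), against 305, 171 and 517 of all tested genes, and none in LV PAB-F against 454.

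**Figure D2:**
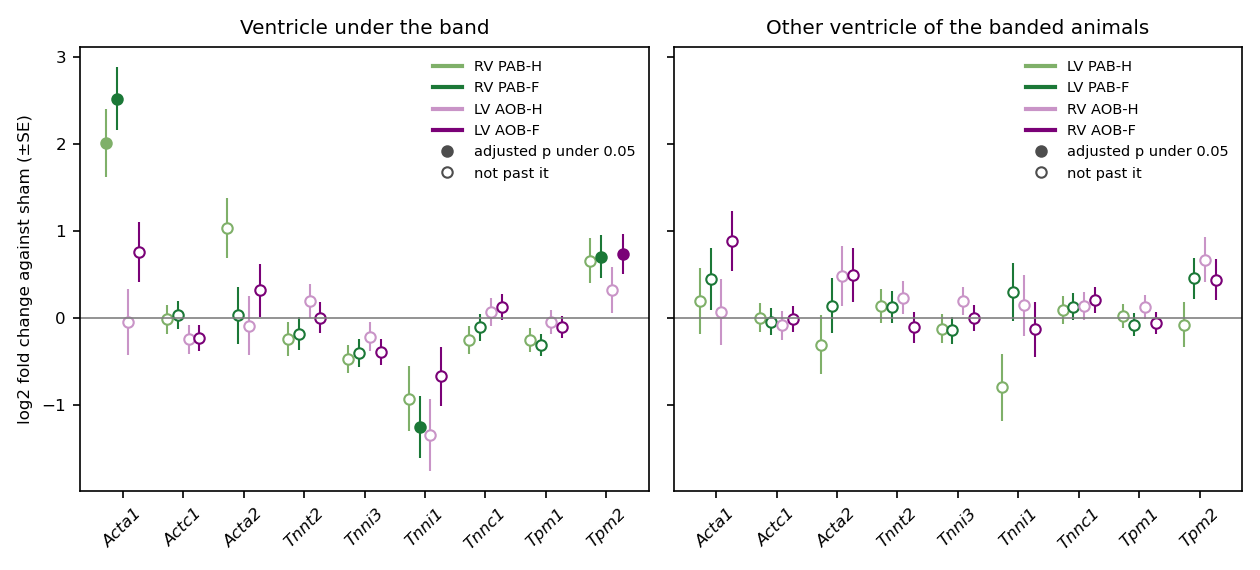
Log2 fold change of the 9 genes against sham animals of the same stage and ventricle, with the standard error as bars, in the ventricle under the band (left) and the other ventricle of the same animals (right). Filled circles passed an adjusted p of 0.05. Acta1 in the 2 RV PAB groups (2.01 and 2.52) stands apart, and all circles in the right panel are open.

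The balance between isoforms was then followed as the ratio of a gene to its partner per length. The pairs were Acta1 and Acta2 to Actc1, Tnni1 to Tnni3, and Tpm2 to Tpm1. Over the 82 libraries, log2 CPM of Acta2 (Pearson r 0.86), Tpm2 (0.63) and Acta1 (0.50) ran with the share of mural cell genes. That of Tpm1 ran against it (-0.88), and Actc1 had an r of -0.13. The part of other heart cells in the ratios was not tested. Mean log2 ratios were compared in 12 comparisons each by exact two-sided permutation tests, with p values adjusted by Benjamini-Hochberg over the 48 tests, of which 17 passed 0.05. With medians in place of means 10 passed, without RV PAB-F replicate 1 and RV PAB-H replicate 2 there were 14, and permuting within each sex gave 18. The 7 lost with medians were Acta1 to Actc1 in RV PAB-H, in RV AOB-F and between the ventricles of Sham-H animals, Tpm2 to Tpm1 in RV PAB-H and RV AOB-F, and Acta2 to Actc1 and Tnni1 to Tnni3 between the ventricles of Sham-F animals, with adjusted p from 0.0509 to 0.0797 (exact permutation). In RV Sham-H Acta1 made a median of 2.55% of the sum of Acta1 and Actc1 (range 1.65% to 4.90%), and in RV PAB-H 13.3% (4.32% to 15.03%). The ratio rose 4.15-fold (log2 difference 2.05, exact permutation p = 0.00466, adjusted p = 0.0214). In RV Sham-F the share was 2.25% (1.48% to 5.71%) and in RV PAB-F 13.6% (3.92% to 20.3%), a 4.79-fold higher ratio (exact permutation p = 0.0016, adjusted p = 0.0214).

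The Acta1 to Actc1 ratio also rose in both ventricles of AOB-F animals. In the LV the median share was 14.3% (7.37% to 16.8%) against 5.45% (3.72% to 13.2%) in Sham-F, and the ratio was 2.10-fold higher (exact permutation p = 0.0049, adjusted p = 0.0214). In the RV, away from the band, it was 5.02% (3.09% to 6.33%) against 2.25%, and the ratio was 1.99-fold higher (exact permutation p = 0.00559, adjusted p = 0.0224). Within each sex these log2 differences were 0.96 (exact permutation, adjusted p = 0.00612) and 0.94 (exact permutation, adjusted p = 0.0204). Without LV AOB-F replicates 6 and 7 that of the LV was 1.07 (exact permutation, adjusted p = 0.0469). The ratio tests are adjusted over 48 values and the gene tests over 11954, so their calls are not on the same footing. In the 4 other banding comparisons the log2 difference lay between 0.23 and 0.53 and did not pass.

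For troponin I the fetal share was small everywhere, the group medians lying between 0.0112% and 0.0594% of the sum of Tnni1 and Tnni3. In RV PAB-F it was 0.0225% to 0.0370%, below all RV Sham-F libraries (0.0443% to 0.0686%), and the ratio fell to 0.561 of its sham value (exact permutation p = 0.0004, adjusted p = 0.00959). No other banding comparison of this ratio passed. With permutation within each sex, the lower ratio in LV AOB-H passed too (log2 difference -1.44, exact permutation, adjusted p = 0.0411), on 1 to 9 Tnni1 counts per banded library. For tropomyosin the Tpm2 share in LV AOB-F was 0.631% (0.503% to 1.27%) against 0.448% (0.263% to 0.537%) in LV Sham-F, and 6 of 7 libraries exceeded all sham libraries. The ratio was 1.76-fold higher (exact permutation p = 0.00035, adjusted p = 0.00959) and stayed past the threshold without replicates 6 and 7 (log2 difference 0.56, exact permutation, adjusted p = 0.0224).

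The Tpm2 to Tpm1 ratio also passed in RV PAB-H (1.87-fold, exact permutation, adjusted p = 0.0494), RV PAB-F (1.94-fold, exact permutation, adjusted p = 0.0234) and RV AOB-F (1.46-fold, exact permutation, adjusted p = 0.0234). Without RV PAB-F replicate 1 and RV PAB-H replicate 2 the PAB-H and PAB-F values were 0.67 (exact permutation, adjusted p = 0.0866) and 0.63 (exact permutation, adjusted p = 0.0509) on the log2 scale, and within each sex that of PAB-H no longer passed (exact permutation, adjusted p = 0.107). The Acta2 to Actc1 ratio passed upon banding only in RV AOB-F (1.47-fold, exact permutation, adjusted p = 0.0214). The part of other heart cells in these tropomyosin and actin ratios was not tested.

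**Figure D3:**
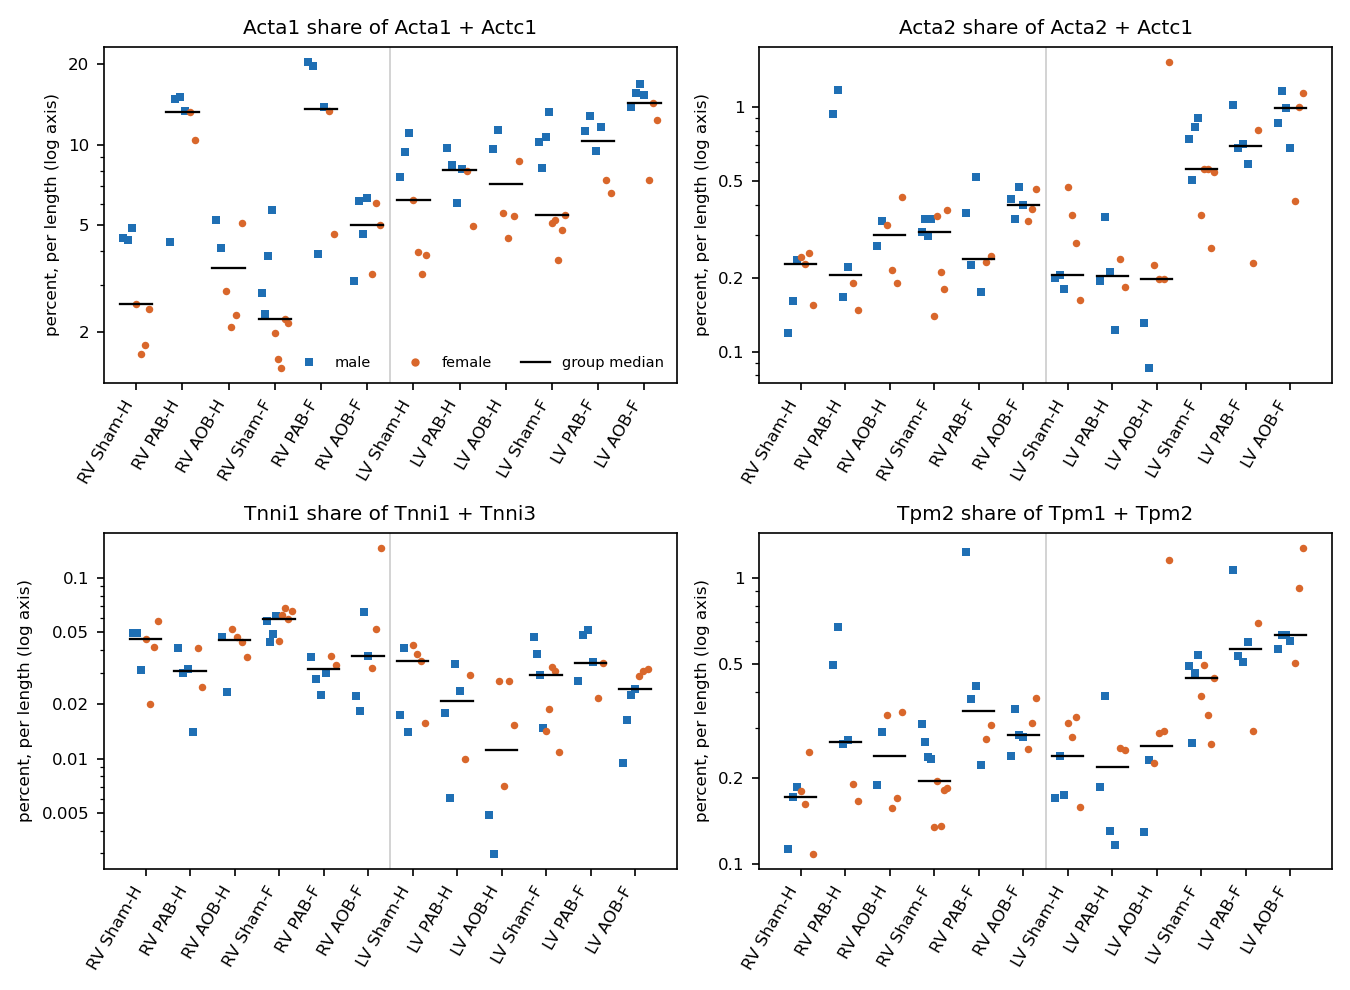
Share of the first isoform in the sum of both, per length, in percent on a log axis, for 4 isoform pairs in each of the 82 libraries. Males are squares, females circles and lines are group medians. The Acta1 share rises from 2.55% to 13.3% and from 2.25% to 13.6% in the RV upon PAB, and the Tnni1 share of RV PAB-F lies below that of RV Sham-F.

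The ventricles of sham animals were compared next, 1 library of each per animal. Unless the animal is named as a block, values of single genes are from the fit without an animal term, which leaves this pairing out. Acta1 was lower in the RV at both stages and in every animal (7 of 7 and 9 of 9). The log2 difference was -1.31 at Sham-H (SE 0.37, adjusted p = 0.0102) and -1.68 at Sham-F (SE 0.33, adjusted p = 6.99e-06). At Sham-H Acta1 was the only called member, against 21% of all tested genes (9.62% higher and 11.4% lower in the RV). Tnnt2 was higher in the RV in 7 of 7 animals (0.46, SE 0.19, adjusted p = 0.0641). It passed with the animal as a block (0.52, adjusted p = 0.00887), with DESeq2 (0.0481) and with sex as a covariate (0.0477). Tnnc1 (0.24, adjusted p = 0.269) and Tpm1 (0.16, adjusted p = 0.395) were also higher in the RV in 7 of 7 animals. Actc1 (-0.20, adjusted p = 0.378) was lower in 7 of 7, and these 3 had no call. At an unadjusted edgeR p under 0.05 there were 2 members, Acta1 and Tnnt2, against 36.4% of all tested genes. How many of all tested genes agreed in every animal was not computed at either stage. The counts per animal thus do not set the members apart.

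At Sham-F 7 of 9 members were called, against 74.3% of all tested genes (35.6% higher and 38.6% lower in the RV), a share close to that of the members. Tnnt2 ranged from 4099 to 6335 CPM in the RV and from 1883 to 3213 CPM in the LV, a log2 difference of 1.02 (SE 0.17, 2.03-fold, adjusted p = 9.9e-08). Tnnc1 (0.86, SE 0.14, adjusted p = 7.57e-08) and Tpm1 (0.61, SE 0.12, adjusted p = 2.86e-06) were also higher in the RV. For these 3 genes the ventricles did not overlap and the RV was higher in 9 of 9 animals, and 41.8% of all tested genes had no overlap. Tnni1 was higher in the RV in 8 of 9 animals (0.72, SE 0.30, adjusted p = 0.0263). Acta2 was lower in the RV in 9 of 9 animals (-1.14, SE 0.29, adjusted p = 0.000346) and Tnni3 in 8 of 9 (-0.33, SE 0.14, adjusted p = 0.026). The Tnni3 call was lost in 11 of the 18 fits that left out 1 library, and that of Tnni1 without LV Sham-F replicate 9 (adjusted p = 0.0679). With the animal as a block Tnni3 (edgeR adjusted p = 0.00587) and Tnni1 (0.0104) stayed called.

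Per isoform pair, the RV of Sham-F animals had a lower Acta1 to Actc1 ratio (0.344-fold), a lower Acta2 to Actc1 ratio (0.494-fold), a lower Tpm2 to Tpm1 ratio (0.508-fold) and a higher Tnni1 to Tnni3 ratio (2.35-fold) than the LV of the same animals. Adjusted p was 0.0214, 0.0214, 0.025 and 0.0214 in exact paired permutation tests, in which 9 animals allow no p below 0.00391. At Sham-H the Acta1 to Actc1 ratio passed (0.475-fold, exact permutation p = 0.0156, adjusted p = 0.0469), which is the smallest p for 7 animals.

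**Figure D4:**
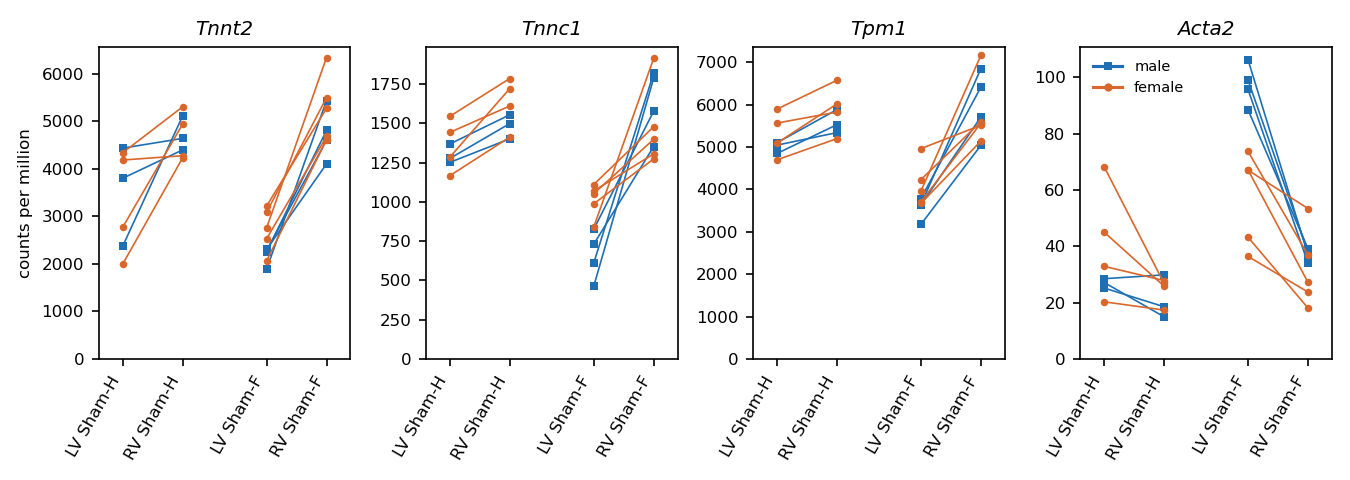
CPM (scaled counts) of Tnnt2, Tnnc1, Tpm1 and Acta2 in the LV and the RV of sham animals at both stages, with a line joining the ventricles of an animal (males squares, females circles). At Sham-F every line rises from LV to RV for Tnnt2, Tnnc1 and Tpm1 and falls for Acta2.

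Sham-F was then compared with Sham-H within each ventricle. In the LV 5 of 9 members were called, a share close to the 57.4% of all tested genes (27.8% higher and 29.6% lower at Sham-F). Acta2 rose from a median of 28.5 CPM (20.3 to 68.2) to 73.7 CPM (36.4 to 106), a log2 difference of 1.09 (SE 0.31, adjusted p = 0.00246). Tnnc1 fell from 1166 to 1544 CPM at Sham-H to 462 to 1110 CPM at Sham-F, with no overlap, as for 1.68% of all tested genes (-0.64, SE 0.15, adjusted p = 0.000157). Tpm1 fell (-0.42, SE 0.12, adjusted p = 0.00248), as did Tnnt2 (-0.46, SE 0.18, adjusted p = 0.0211), and Tnni3 rose (0.37, SE 0.15, adjusted p = 0.0282). The Tnnt2 call was lost without LV Sham-H replicate 1 or 7 (highest adjusted p 0.069), and that of Tnni3 without any of 5 libraries (highest adjusted p 0.0803). In the RV edgeR called 0.0502% of all tested genes, and neither edgeR nor DESeq2 called a member. No member had an unadjusted p under 0.05 there, against 601 of all tested genes. The log2 differences in the RV lay between -0.24 and 0.57, the latter for Acta2. Whether the difference between the stages differed between the ventricles was not tested. The Acta2 to Actc1 ratio (2.23-fold, exact permutation, adjusted p = 0.0214) and the Tpm2 to Tpm1 ratio (1.74-fold, exact permutation, adjusted p = 0.0214) of the LV were higher at Sham-F.

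Genes of other heart cells moved with these differences. The summed share of 8 mural cell genes was 0.0697% to 0.156% in LV Sham-F against 0.0293% to 0.0493% in RV Sham-F and 0.0400% to 0.117% in LV Sham-H. The 7 endothelial genes took 0.216% to 0.414%, 0.0723% to 0.123% and 0.124% to 0.326%, and the 9 fibroblast genes 0.151% to 0.410%, 0.0401% to 0.128% and 0.0504% to 0.252% in the same groups. The 8 ventricular cardiomyocyte genes took less in LV Sham-F (6.17% to 8.59%) than in RV Sham-F (9.46% to 12.8%). Of the defining genes, Pecam1 and Cdh5 (endothelial) and Myh11 and Rgs5 (mural) were at 0 in no library. Of the listed genes, the smooth muscle gene Cnn1 was at 0 in 1 library, the fibroblast gene Col1a2 in 71, the myofibroblast genes Cthrc1 and Thbs4 in 12 and 3, and the atrial gene Bmp10 in 17. The part of other cells in the sham differences was not tested.

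Over the 82 libraries, log2 CPM of Acta2 had a Pearson r of 0.86 with the log2 of the mural share, and Tpm2 one of 0.63, while Tnnt2 (-0.88), Tpm1 (-0.88) and Tnnc1 (-0.81) ran against it. Acta1 (0.50), Actc1 (-0.13), Tnni3 (0.12) and Tnni1 (-0.17) had r nearer to 0 with this share. With other lists, Acta2 had an r of 0.81 with the fibroblast share, Tpm2 0.63 with that of macrophages and 0.58 with that of fibroblasts, and Acta1 0.57 with the endothelial share. Tnnt2 had -0.87 and Tpm1 -0.85 with the endothelial share, and 0.73 and 0.79 with that of ventricular cardiomyocytes. With the myofibroblast share Tnni3 had -0.57 and Actc1 -0.45. The libraries share animals, groups and the same total, so these values describe the set and carry no test.

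**Figure D5:**
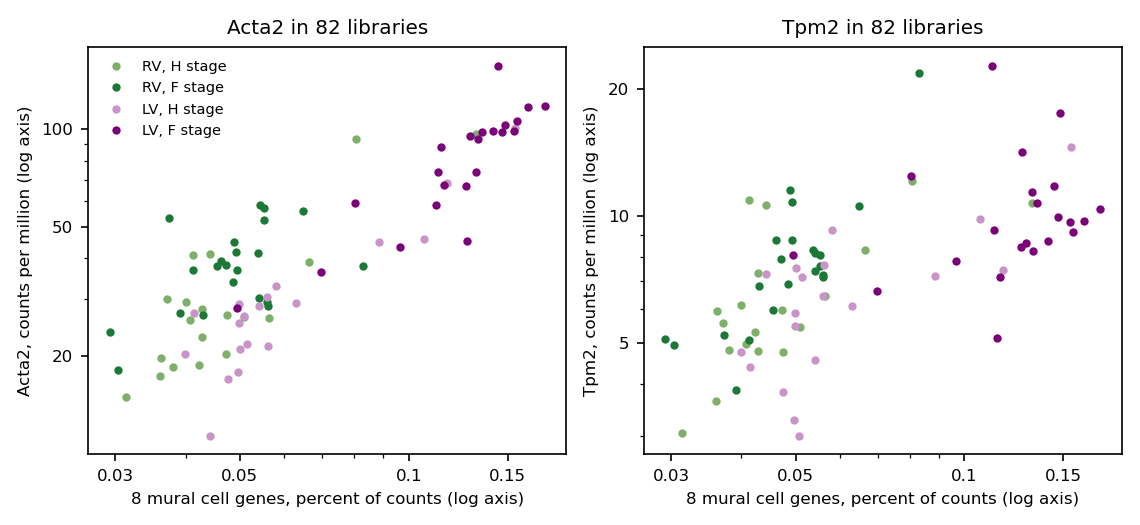
Acta2 (left) and Tpm2 (right) in CPM (scaled counts) against the percent of counts on 8 mural cell genes, both on log axes, in 82 libraries coloured by ventricle and stage. Acta2 follows the mural share (r 0.86) more closely than Tpm2 (r 0.63), and the LV Sham-F libraries (0.0697% to 0.156%) lie to the right of the RV Sham-F libraries (0.0293% to 0.0493%).

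The members also differed in which other genes ran with them over the 82 libraries. Of 11953 genes, log2 CPM of Acta1 was most like that of Sypl2 (r 0.91), Nppa (0.84), which encodes atrial natriuretic peptide, and Hyal1 (0.83). Acta2 was most like Tagln (0.95), a smooth muscle actin-binding protein that is also in the mural list, followed by Galnt16 (0.88) and Lgi4 (0.87). Tpm2 was most like Slc41a2 (0.76), Flna (0.75), which encodes the actin crosslinker filamin A, and Bcat1 (0.72). Tnnt2 ran with Pde4dip (0.93), Spag7 (0.93) and Myzap (0.91), Tnnc1 with Txndc17 (0.92), Gsta4 (0.91) and Hsbp1 (0.90), and Tpm1 with Mrpl3 (0.93), Clpb (0.92) and Chchd3 (0.92). Tnni3 was most like Ndufab1 (0.89), LOC100911483 (0.89) and Prdx5 (0.87), and Actc1 like Lynx1 (0.85), Tmem38a (0.81) and Ncf1 (0.79). Tnni1, on few counts, reached 0.60 with Cobl, 0.59 with Panx2 and 0.59 with Ctsh. Among the members, Tnnt2, Tnnc1 and Tpm1 ran together (r from 0.80 to 0.85), whereas Tnni3 had an r of -0.13 with Tnnt2 and -0.14 with Tnnc1.

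Other genes linked to the thin filament were taken from 3 lists. They were 9 further subunits (7 tested), 21 genes of filament length and assembly (17 tested), and SRF with genes grouped with it (9 tested). The third list is not limited to SRF cofactors and holds Ankrd1, by the study's account a titin-binding muscle ankyrin repeat protein. In RV PAB-H 1 gene of the 3 lists was called, against 4.5% of all tested genes. It was Tmod3 (0.79, SE 0.21, adjusted p = 0.0197), a tropomodulin that caps pointed filament ends. In RV PAB-F the fast skeletal troponin T gene Tnnt3 rose (1.53, SE 0.44, adjusted p = 0.0162), and Tmod4 (-0.81, SE 0.22, adjusted p = 0.00808) and the barbed-end capping subunit Capzb (-0.23, SE 0.07, adjusted p = 0.0285) fell. Of the third list Hopx (1.22, adjusted p = 0.000271) and Ankrd1 (0.66, adjusted p = 0.0418) rose and Fhl2 (-0.45, adjusted p = 0.0335) fell. Of all tested genes 11.1% were called in RV PAB-F. In LV AOB-F 5 of 17 assembly genes were called and all 5 rose, led by Xirp2 (1.17, SE 0.33, adjusted p = 0.0123), the muscle cofilin Cfl2 (0.59, adjusted p = 0.008) and Capza1 (0.57, adjusted p = 0.0106). All tested genes were called at 12.9%, and 8.54% were called higher. The list's median was 0.21 against 0.04 over all tested genes. This group holds replicates 6 and 7 with their small Myh6 shares, and genes of myofibroblasts and macrophages were called in it too. Their part in these values was not tested. In the same comparison Fhl1 (1.21, adjusted p = 0.000176) and Ankrd1 (0.89, adjusted p = 0.00375) rose and Fhl2 fell (-0.61, adjusted p = 0.00244). In LV AOB-H and in the ventricles away from the band edgeR called no gene of the 3 lists, and at most 0.0669% of all tested genes.

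In Sham-H animals 2 of 17 assembly genes were called between the ventricles, Nebl (1.05, adjusted p = 0.00167) and Capza2 (0.75, adjusted p = 0.0307), both higher in the RV. Of all tested genes 21% were called, 9.62% higher and 11.4% lower in the RV. Slow skeletal Tnnt1 was higher there too (1.52, adjusted p = 0.024), and the cytoplasmic actins Actb (-0.96, adjusted p = 0.00148) and Actg1 (-0.74, adjusted p = 0.00462) and the homeodomain gene Hopx (-1.17, adjusted p = 0.000813) were lower.

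In Sham-F animals 14 of 17 assembly genes were higher in the RV than in the LV and 0 lower, with a median of 0.91 against -0.07 over all tested genes. The largest were Nebl (2.30, SE 0.22, adjusted p = 1.68e-14), which encodes nebulette of the thin filament near the Z-disc, Xirp2 (2.27) and Capza2 (2.23). Of the 7 other subunits 5 were lower in the RV, led by Actb (-1.95) and Actg1 (-1.54), and Tnnt1 was higher (1.60, SE 0.45, adjusted p = 0.000967). In the third list 4 of 9 genes were higher and 3 lower, led by Hopx (-1.52), Ankrd1 (1.03) and Srf itself (-0.59, SE 0.10, adjusted p = 4.96e-07). Between Sham-H and Sham-F, 14 of the 17 assembly genes fell in the LV, led by Capza2 (-1.38), Xirp2 (-1.11) and Nebl (-1.09), and 1 rose, with a median of -0.62 against 0.04. The gene that rose, named after its value was seen, was Lmod1 (0.80, adjusted p = 0.0185), a leiomodin of smooth muscle. Of the subunits Actg2 (0.98), Actb (0.83) and Actg1 (0.48) rose and none fell, and of the third list Tead1 fell (-0.47) and Elk1 rose (0.28). In the RV edgeR called no gene of the 3 lists between the stages, and 0.0502% of all tested genes. These counts stand against the 74.3% and 57.4% of all tested genes called in the 2 comparisons. By direction, 35.6% of all tested genes were higher and 38.6% lower in the RV of Sham-F. In the LV 27.8% were higher and 29.6% lower at Sham-F than at Sham-H. The shares of genes of other heart cells also differed between these groups, and their part in these counts was not tested.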

How the data were processed

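RNA-seq of isolated RV and LV cardiomyocytes from 41 rats (82 libraries) was used. The raw counts per gene were made by the authors from rRNA-depleted libraries with Trim Galore, STAR on the Rnor6.0 build and featureCounts within nf-core/rnaseq, and deposited for 17337 genes. The deposited table also holds counts divided by DESeq2 size factors, a signal made by the authors and not used in tests, and FPKM values made by the authors, used only for levels between genes and for gene lengths. Reads that overlap more than 1 gene were left uncounted, and how reads that align to several places were treated is not given in the sources used here.

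Groups came from the labels. The raw counts were fitted with edgeR 4.0.16 (quasi-likelihood, TMM, 1 mean per group over all 82 libraries, genes kept by filterByExpr) in R 4.3.3, with 18 contrasts and Benjamini-Hochberg adjustment over 11954 genes. Standard errors follow from the F statistic. CPM use the effective library size. Isoform ratios use counts per length with 0.5 added and exact permutations in scipy. Alternatives were DESeq2 1.42.0, other scaling, no filter, the study's criteria, fits to 2 groups, sex, blocks and left-out libraries. The functions were tested on simulated data. The columns map to samples by name, and RV and LV of a number belong to 1 animal in the labels. Deviations from the mean of the group had, within an animal, a median r of 0.22 over 41 pairs, against -0.05 between other animals of a condition. Members and lists were chosen with earlier results of these data known. Named genes are the members, up to 3 called genes of each list with the largest change per comparison, and the 3 genes most like each member. Lmod3, Neb, Xirp1, Kbtbd13 and the myocardin-related factors were not analysed here. Counting error limits Tnni1 most.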

Additional observations from a re-analysis of the deposited data

Results flagged for a closer look

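Of 108 sets of a member and a group, 10 had a highest or lowest library that lay far from the others on the log2 scale by Dixon's criterion. Chance flags about 1 in 20 sets. Of these, 4 came from LV AOB-H replicate 6, the library with the fewest counts and the largest endothelial share, which was the lowest of 6 for Actc1 (7022 CPM, next 11330), Tnnt2 (2591, next 3904), Tnni3 (1552, next 2360) and Tpm1 (2450, next 5121). In LV PAB-F, replicate 5 was the lowest for Acta2 (28.2 CPM, next 73.9) and the highest for Tpm1 (5457 CPM, next 3660), and replicate 4 the highest for Tnni3 (5008 CPM, next 3194). Acta1 was lowest in RV PAB-H replicate 1 (464 CPM, next 1478). Tpm2 was highest in RV PAB-F replicate 1 (21.8 CPM, next 10.5) and in RV AOB-F replicate 2 (11.5 CPM, next 8.76).

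The response of Acta1 to PAB at the F stage differed between the ventricles by the interaction term (2.07 higher in the RV on the log2 scale, edgeR adjusted p = 0.0482). This call was lost without a filter on low counts (edgeR adjusted p = 0.0804) and with DESeq2's size factors in edgeR. It was also lost without RV PAB-F replicate 1 and RV PAB-H replicate 2. The call held with sex as a covariate, with the animal as a block (edgeR adjusted p = 0.00567) and in DESeq2's own test (adjusted p = 0.0231).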

How the results depend on the processing

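No called value of a member or ratio changed its sign under the alternatives run. Of 1953 values recomputed under alternatives other than leaving out 1 library, 1897 stayed on their side of the threshold, 38 lost a call and 18 gained one. Among values that were never called, 56 changed sign.

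With the study's criteria in place of an adjusted p, member calls went from 5 to 3 in the loaded ventricle, from 8 to 4 between RV and LV of sham animals, from 5 to 1 with age and from 1 to 3 for a different response of the ventricles. The last was 0 without a filter, with DESeq2's size factors and without RV PAB-F replicate 1 and RV PAB-H replicate 2. Leaving out 1 library gave 4 to 7 calls in the loaded ventricle (7 without LV AOB-H replicate 6, where Acta2 and Tnni3 passed in RV PAB-H), 7 to 9 between the ventricles and 3 to 5 with age, the 3 without LV Sham-H replicate 1 or 7, and 0 away from the band. Between males and females 2 members were called, and 1 in the RV or the LV libraries alone. Of the 48 ratios 17 passed with means, 10 with medians and 14 without RV PAB-F replicate 1 and RV PAB-H replicate 2, where the Acta1 to Actc1 ratio of RV against LV in Sham-H (exact permutation, adjusted p = 0.05) no longer passed. The cause of these changes was not tested.

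The replicate number as a block marks no shared animal between groups. This replicate block gave 6 calls in the loaded ventricle, 5 with age and 0 away from the band or between stages. With it Tnni3 passed in LV AOB-F (-0.47, adjusted p = 0.03) and RV PAB-F (-0.49, adjusted p = 0.0433), and Tpm2 in RV PAB-F did not (0.64, adjusted p = 0.0929). The pairing by animal gave 9 calls between the ventricles and 1 for a different response, and without it 17 ratios still passed. Counting error limits Tnni1 most, which had at most 47 counts in a library.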
